A study of Homo sapiens with 4 samples.

Results

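Olfactory receptor genes encode the odorant-binding, G protein-coupled receptors of the nose and form the largest gene family of the human genome, arranged in clusters. They were examined here as genes that are, as a class, silent in kidney cells. Members were chosen by symbol alone: RefSeq protein-coding genes of GRCh38 on chromosomes 1 to 22 with a symbol of the form OR, number, letters, number. There were 389 such genes. Of these, OR8U8, OR8U9 and OR9G9 are listed in the table with positions on an alternate sequence rather than on chromosome 11 itself and were left out, leaving 386 members among 18973 placed protein-coding genes. A peak was assigned to the family when its summit lay inside a member or within 20 kb of one, and each peak was counted once.

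The peaks are those of beta-hydroxybutyrylated lysine 4 of histone H3 (H3K4bhb), mapped by ChIP-seq (sequencing of immunoprecipitated chromatin) in HK-2, an established line from human kidney tubules. One group was challenged with hydrogen peroxide (H2O2), an oxidant, and the other was pretreated with sodium beta-hydroxybutyrate (BHBNa), the salt of a ketone body, before H2O2. Both groups therefore carried the H2O2 challenge, and the sources used here give neither dose nor time. Each of the 2 treatments had 1 immunoprecipitated (IP) library and 1 control, named IgG in its title but input in its library name. Each gave 1 peak list, called here the H2O2 list and, for H2O2 + BHBNa, the BHBNa list. With 1 IP library per treatment there is no replicate check and no test, and every interval below covers counting error only.

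In the olfactory epithelium each sensory neuron is known to express a single receptor gene, chosen from clusters that are otherwise packed in repressive chromatin. Class I receptors (families 51 to 56) are the older, fish-like group, and class II holds all other families. Homeodomain factors such as LHX2 and the EBF factors are known to act at receptor promoters and enhancers in those neurons. Beta-hydroxybutyrylation of histone lysines is known to rise with the supply of beta-hydroxybutyrate and has been described mainly at active genes.

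Sequence is shown first for the members that carry the strongest or closest peaks. RefSeq promoter sequence of GRCh38.p14, from 250 bases before to 50 after the annotated start, was matched for 311 of the 386 members, in 323 windows. A single window was touched by a peak of either list, that of OR10A2 (plus strand, chr11:6862807-6863106). The share touched over all protein-coding windows is not given here, so this count has no background beside it. In the OR10A2 sequence the capitals mark the 112 bases that lie under a peak of the H2O2 list (chr11:6862995-6863280). This was a weak peak, with a fold enrichment over the local control background of 2.96, from 3 fragments. Its q (p adjusted for multiple testing) was 0.494, and its summit lay just past the end of the window.

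OR10A2: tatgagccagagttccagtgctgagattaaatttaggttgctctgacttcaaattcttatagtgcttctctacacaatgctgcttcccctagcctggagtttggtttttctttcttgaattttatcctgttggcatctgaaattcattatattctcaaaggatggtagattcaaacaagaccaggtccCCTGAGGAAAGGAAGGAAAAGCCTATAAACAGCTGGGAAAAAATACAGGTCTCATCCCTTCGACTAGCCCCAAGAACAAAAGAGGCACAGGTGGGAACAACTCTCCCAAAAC

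The next 3 promoters belong to the members outside which the 3 highest folds of both lists were found: OR52W1 (plus strand, chr11:6198974-6199273), OR52B4 (minus strand, chr11:4368337-4368636) and OR10J5 (minus strand, chr1:159535958-159536257). They are shown 5′ to 3′ on the gene's strand, and capitals mark matches to the homeodomain-type motif TAATNA on either strand.

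OR52W1: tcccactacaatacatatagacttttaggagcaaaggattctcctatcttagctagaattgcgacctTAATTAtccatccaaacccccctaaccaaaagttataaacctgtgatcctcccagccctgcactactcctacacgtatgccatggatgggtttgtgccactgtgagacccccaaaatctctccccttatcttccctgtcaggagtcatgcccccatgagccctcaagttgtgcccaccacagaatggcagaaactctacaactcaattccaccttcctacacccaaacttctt

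OR52B4: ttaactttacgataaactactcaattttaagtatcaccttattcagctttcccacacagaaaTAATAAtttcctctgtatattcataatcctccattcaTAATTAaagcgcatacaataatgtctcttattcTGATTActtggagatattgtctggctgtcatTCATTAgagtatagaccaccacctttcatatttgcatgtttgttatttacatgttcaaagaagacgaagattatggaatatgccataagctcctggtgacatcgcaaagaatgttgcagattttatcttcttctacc

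OR10J5: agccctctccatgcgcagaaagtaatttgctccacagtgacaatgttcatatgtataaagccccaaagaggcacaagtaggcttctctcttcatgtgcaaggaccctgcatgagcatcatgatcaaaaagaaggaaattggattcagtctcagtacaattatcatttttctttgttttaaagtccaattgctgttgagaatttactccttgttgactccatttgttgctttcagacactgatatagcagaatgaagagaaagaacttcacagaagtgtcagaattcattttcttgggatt

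The windows shown held few CpG dinucleotides, from 1 in OR10A2 and OR10J5 to 4 in OR52B4. Their GC content ran from 33.0% in OR52B4 to 47.0% in OR52W1. Windows of the family were mostly rich in A and T and poor in CpG. Median GC content was 37.7% over the 311 members (interquartile range 33.8 to 43.3) and 63.0% over 14790 other protein-coding genes (54.7 to 70.7). The median number of CpG dinucleotides per window was 1 in members and 23 in other genes, and 20.9% of member windows had none, against 1.5%. TAATNA, searched on both strands, was found in 62.7% of member windows and in 17.9% of all 15101 protein-coding windows. TATAAA was found in 35.0% and 9.71%, and CCCNNGGG, the core letters of an EBF site, in 8.04% and 21.8%. OR52B4 held 4 matches to TAATNA, OR52W1 and OR10A2 held 1 each, and OR10J5 held 0. The lower GC content of member windows moves with the shares of these AT-rich and GC-rich motifs, and its part was not tested. In 126 of the 311 members the annotated start is the start codon itself, so the window of such a gene need not be a true promoter.

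The family carried peaks at about the average density of each list. In the H2O2 list 24 of 5879 summits on these chromosomes fell within 20 kb of a member, 0.408% (95% Wilson interval 0.274 to 0.607). In the BHBNa list 50 of 10760 did, 0.465% (0.353 to 0.612). The merged windows cover 12 Mb, 0.418% of the annotated extent of the chromosomes. Per Mb of window there were 2.0 H2O2 peaks (95% Poisson interval 1.28 to 2.97) and 4.16 BHBNa peaks (3.09 to 5.48), where the averages over the extent were 2.05 and 3.74. Of the 74 peaks near members, 67.6% (exact binomial interval 55.7 to 78.0) came from the BHBNa list, which held 64.7% of all peaks. The count near members was thus 2.08 times as high in that list, beside 1.83 times over all chromosomes. Lists also differ in the lowest local background, a floor that MACS2 sets from library depth: 0.274 fragments for H2O2 and 0.102 for BHBNa. The part of depth in the counts was not tested.

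The surroundings gave a different picture from the genome average. Sequence between 20 kb and 1 Mb from a member, 76.1 Mb in all, held 72 peaks of the H2O2 list, 0.946 per Mb (0.740 to 1.19), below the interval of the members' windows. For the BHBNa list it held 224, 2.94 per Mb (2.57 to 3.35), and the 2 intervals overlapped. These surroundings hold other genes, and unsequenced and centromeric stretches within them were not removed. Other protein-coding genes of at most 10 kb, 4920 in number, had densities of 0.802 (0.669 to 0.954) and 2.62 (2.37 to 2.89), both below the intervals of the receptor windows. Peak density also moved with promoter composition over all genes. In the lowest quintile of promoter GC (6.67 to 51.3%), which holds 299 of the 311 members, the remaining 2784 genes had 2.09 peaks per Mb (1.93 to 2.26) and 4.07 (3.84 to 4.30). In the highest quintile (72.3 to 94.0%) the values were 1.31 (1.19 to 1.44) and 3.40 (3.21 to 3.60). The receptor densities of 2.0 and 4.16 lay close to those of other genes in the lowest quintile, as the plot of peak density by gene group shows.

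**Figure D1:**
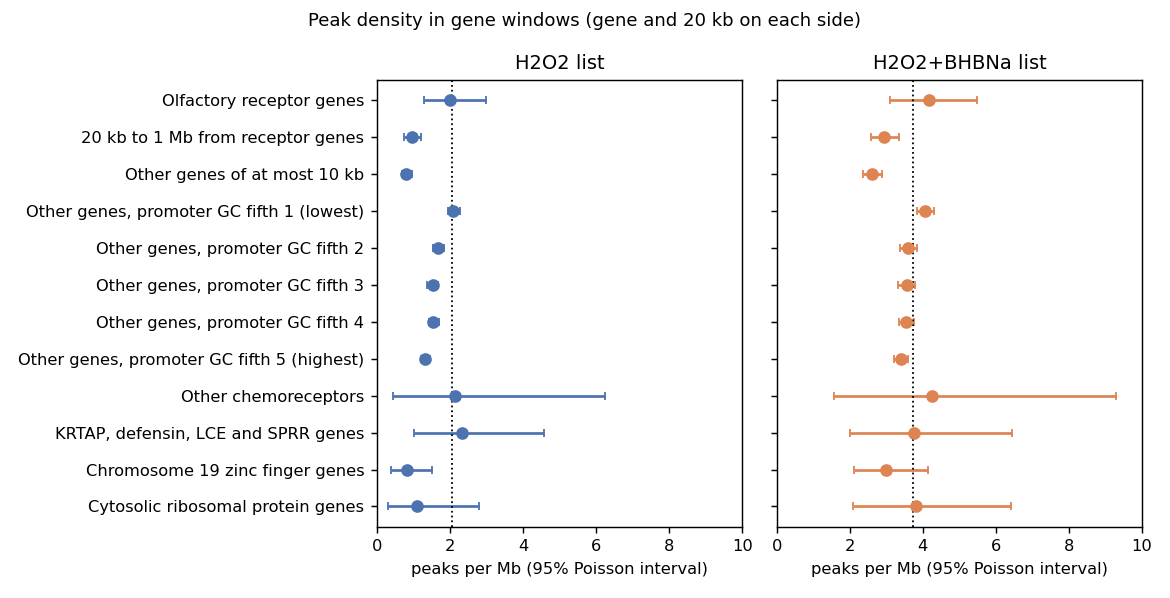
Peaks per Mb (horizontal axis) in windows of a gene and 20 kb on each side, for the H2O2 list (left) and the BHBNa list (right). Points are densities, bars 95% Poisson intervals and the dotted line the average of the list. Receptor windows, at 2.0 and 4.16, lie beside the other genes of the lowest GC quintile, at 2.09 and 4.07, and above other genes of at most 10 kb, at 0.802 and 2.62.

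Shifted positions gave fewer peaks in the same windows. With all summits moved by 1 to 5 Mb in either direction, 10 fixed shifts in all, the windows held a mean of 14.7 peaks of the H2O2 list (range 9 to 21) against 24 observed. For the BHBNa list the mean was 35.9 (27 to 49) against 50 observed. The ratios were 1.63 (1.05 to 2.43, from the Poisson interval of the count) and 1.39 (1.03 to 1.84). As in the surroundings, unsequenced and centromeric stretches were not removed before shifting. Their part in these ratios was not tested. The largest cluster of members spans 3574 kb, so a shift can also carry a summit from 1 receptor window into another of the same cluster. That part was not tested either. Shifts toward higher coordinates gave means of 11.6 and 33.2, and shifts toward lower coordinates 17.8 and 38.6. For peaks with a q (p adjusted for multiple testing) of at most 0.05, the ratios were 0.909 and 0.769, from only 1 and 4 peaks. Further H2O2 peaks at that q lay just beyond 20 kb and are given below. With moves of 100 to 500 kb the means were 16.1 and 44.4, ratios of 1.49 (0.955 to 2.22) and 1.13 (0.836 to 1.48), and 1 of 10 shifts reached the observed 50. Outside chromosome 11 the difference was not seen. There the windows held 9 and 20 peaks, where the shifts of 1 to 5 Mb gave means of 8.90 (4 to 14) and 21.9 (14 to 28).

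**Figure D2:**
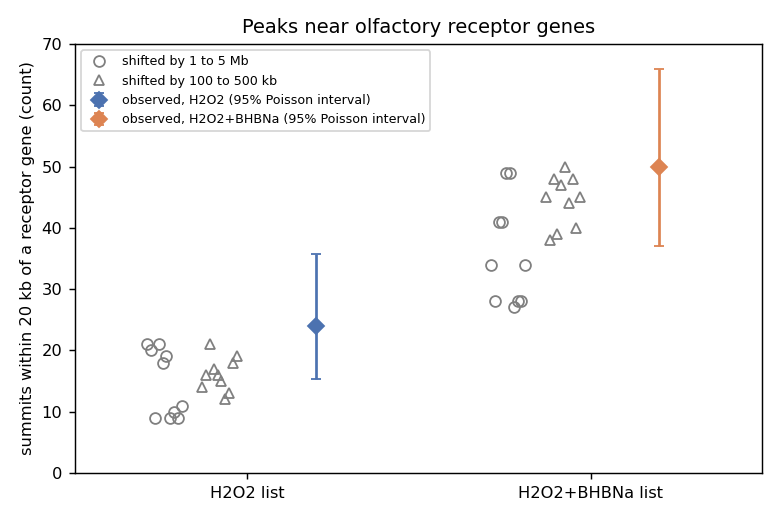
Number of summits within 20 kb of a receptor gene (vertical axis) in each list. Diamonds are the observed counts of 24 and 50 with 95% Poisson intervals, and open symbols are the counts after each of 10 long and 10 short shifts. The observed counts lie above all long shifts, whose highest values were 21 and 49.

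Chromosome 11, which holds 168 of the 386 members, accounted for most of the peaks. It held 15 of the 24 peaks of the H2O2 list and 30 of the 50 of the BHBNa list. Its receptor windows had 3.12 peaks per Mb (1.74 to 5.14) and 6.23 (4.20 to 8.90), where the rest of chromosome 11 had 2.04 and 3.93. On the other 16 chromosomes with members the windows had 1.25 per Mb (0.571 to 2.37) and 2.77 (1.69 to 4.28). The densities of those chromosomes outside the windows give 12.4 and 24.3 peaks, against 9 and 20 found. Chromosome 1, with 61 members, held 5 and 7 peaks, 2.60 and 3.64 per Mb beside 1.74 and 3.45 in its remainder. Chromosome 12 held 0 and 5 peaks near 18 members, and chromosome 19 held 2 and 1 near 20. Chromosomes 6 and 7, with 17 and 15 members, held 0 peaks in both lists, where 0 allows up to 6.58 and 7.16 per Mb. Over all 17 chromosomes, the density of each chromosome outside the windows gives 22.2 and 43.2 peaks, ratios of 1.08 (0.692 to 1.61) and 1.16 (0.858 to 1.52). These ratios are lower than those against the shifts of 1 to 5 Mb, and for the BHBNa list the shifts of 100 to 500 kb gave a similar 1.13.

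Members fell into 38 clusters, runs with gaps of at most 1 Mb, of which 10 were single genes. Peaks of the H2O2 list lay in 12 clusters and peaks of the BHBNa list in 14, with 9 clusters in both and 21 in neither. The 21 clusters without a peak held 60 genes in all, and 2 of them had at least 5 genes. The 6 largest clusters, with 224 members, held 15 of 24 and 35 of 50 peaks.

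The largest cluster, on chromosome 11 from OR52B4 to OR10A3 (4367263 to 7941708), has 67 members and all 55 class I genes. It held 5 peaks of the H2O2 list and 9 of the BHBNa list, 2.70 and 4.85 per Mb. The cluster from OR4C46 to OR5AK2 (chromosome 11, 54603069 to 56989843), with 48 members, held 1 and 9 peaks, 0.756 per Mb (0.0191 to 4.21) and 6.80 (3.11 to 12.9). The cluster from OR9Q1 to OR10V1 (chromosome 11, 58023881 to 59713845), with 21 members, held 1 and 6. The balance was the other way in the cluster from OR6X1 to OR8A1 (chromosome 11, 123753580 to 124571374), whose 22 members had 5 and 4 peaks. At 8.37 per Mb (2.72 to 19.5) in the H2O2 list it was second among clusters of at least 5 genes. The highest of these, 8.73 (1.06 to 31.5), belonged to the 7 genes from OR4B1 to OR4A47 on the same chromosome, from 2 peaks. In the BHBNa list the densest cluster of at least 5 genes was the run of 15 from OR9K2 to OR10P1 on chromosome 12 (55126406 to 55637833). It had 5 peaks, 10.7 per Mb (3.49 to 25.1), and 0 in the H2O2 list, which allows up to 7.92 per Mb. The cluster from OR2B11 to OR14I1 (chromosome 1, 247449118 to 248702766; 43 members) held 2 and 4 peaks, and that from OR11H2 to OR6J1 (chromosome 14, 19712936 to 22644352; 23 members) held 1 and 3. Among clusters of at least 5 genes, those from OR2W1 to OR2H2 on chromosome 6 and from OR9A2 to OR2A1 on chromosome 7 had no peak in either list. Counting intervals of the 2 lists overlapped in every cluster named here.

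Within these clusters the peaks were spread over several members, some of which had 2 peaks of a list. In the run from OR4C46 to OR5AK2 the highest of the 9 BHBNa peaks lay 3649 bp upstream of OR5L1, at a fold of 3.57 (q of 0.0505), within reach of 4 members. The others lay near OR4C11, with 2 peaks, OR4C6, OR5D14, OR5F1, OR8I2, with 2 peaks, and OR5AR1, at folds from 2.57 to 3.40. Its single H2O2 peak lay near OR5D3. On chromosome 12 the 5 BHBNa peaks lay near OR9K2 (fold 3.30), OR6C70 (3.02), OR6C4 (3.36), OR2AP1 (2.56) and OR10P1 (2.72), and each rested on 2 or 3 fragments. From OR6X1 to OR8A1 the 5 H2O2 peaks were nearest to OR8D4 (3.53), OR8G5 (3.18), OR8D2 (3.81), OR8B8 (3.14) and OR8A1 (3.48). The peak nearest to OR8D4 was also within reach of OR4D5 and OR6T1. The 4 BHBNa peaks of that run were nearest to OR4D5 (3.13), OR10S1 (3.32 and 2.56) and OR8B8 (2.55). The genes of this paragraph other than those with values given elsewhere were named after their values were seen.

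**Figure D3:**
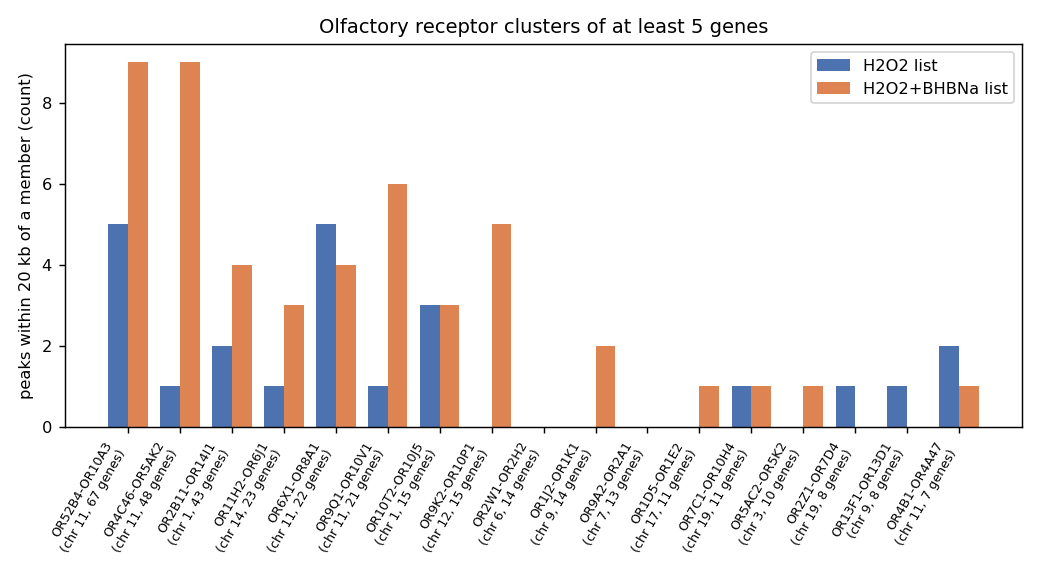
Number of peaks within 20 kb of a member (vertical axis) in each of the 17 clusters of at least 5 genes, named by first and last gene and ordered by size. The 4 chromosome 11 clusters among the 6 largest hold 1 to 9 peaks per list, and the clusters on chromosomes 6 and 7 hold 0.

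By class, the 55 class I genes had 3 peaks of the H2O2 list and 8 of the BHBNa list, 1.96 per Mb (0.404 to 5.72) and 5.22 (2.25 to 10.3). The 331 class II genes had 21 and 42, 2.0 (1.24 to 3.06) and 4.0 (2.89 to 5.41), so the intervals of the classes overlapped in both lists. Among families of at least 20 genes, family 10 had 5 and 10 peaks near 35 members and family 8 had 5 and 4 near 23. Family 2, the largest with 68 members, had 2 and 3, 0.877 per Mb (0.106 to 3.17) and 1.31 (0.271 to 3.84). Its upper bound in the BHBNa list lies near that list's average of 3.74. Family 51 had 0 and 3 peaks near 23 members. One of these lay between OR51E1 and OR51E2, receptors known for transcripts outside the nose and named here after their values were seen. Its fold was 2.58 and its q 0.326, from 2 IP fragments, and the H2O2 list had no peak there.

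Counted by gene, 31 of 386 members had a peak of the H2O2 list within 20 kb, 8.03% (5.72 to 11.2), where 11.3% of all placed protein-coding genes did. For the BHBNa list the count was 68, 17.6% (14.1 to 21.7), beside a background of 24.7%. Members are short, with a median length of 3.08 kb against 25.8 kb for other genes, so their windows are narrower. Among genes of at most 10 kb, 7.96% and 17.5% of 314 members had a peak, and 3.03% and 9.72% of the 4920 others. Neighbouring members share windows, 18.5 Mb summed against 12 Mb merged, and 1 peak could lie within reach of up to 4 members, so members are not independent. In total 301 members had no peak in either list, 17 had an H2O2 peak only, 54 a BHBNa peak only and 14 both. The shares of all placed genes split in this way are not given here. The BHBNa list was also the longer, with 10760 peaks on these chromosomes against 5879. It reached down to 2 fragments at a summit, where the H2O2 list held no peak under 3. With at least 3 fragments required, 36 members had a BHBNa peak and 31 an H2O2 peak. With q of at most 0.05, 1 member was left in the H2O2 list (background 1.01%) and 4 in the BHBNa list (background 5.17%), 0.259% and 1.04% of members.

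The strongest peak near a member in the H2O2 list was 5749 bp upstream of OR52W1, a class I gene. This peak (chr11:6193358-6193695) had a fold enrichment over the local control background of 6.06, a q of 0.000410 and 9 IP fragments at its summit. A second H2O2 peak lay downstream of the gene, at a fold of 3.92 (q of 0.180), and the BHBNa list had none within 20 kb. The strongest BHBNa peak was 11274 bp upstream of OR52B4, also class I (chr11:4379284-4379699), its fold being 5.67 and its q 0.000379, from 6 fragments. The H2O2 list had a different peak near OR52B4, 1088 bp downstream, at a fold of 3.07 (q of 0.494, 4 fragments). The promoters of both genes are printed above.

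OR10J5, a class II gene on chromosome 1, had a peak 839 bp upstream of its annotated start (chr1:159536693-159536976) in the BHBNa list. Its fold was 5.22 and its q 0.000719, from 5 fragments. A second peak of that list lay downstream of OR10J5 at a fold of 2.53, and the H2O2 list had none near the gene. OR9Q1, a class II gene spanning 158 kb of chromosome 11, held a peak inside it of fold 4.19 (q of 0.0263), and OR51L1, class I, held one of fold 4.12 (q of 0.0387). Each rested on 4 fragments and belonged to the BHBNa list. All 5 peaks with a q of at most 0.05 thus belonged to clusters on chromosomes 1 and 11, and none of these positions held a peak of the other list.

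Below that limit, the next folds in the H2O2 list were 4.58 at OR13C8 (q of 0.0543, 857 bp downstream of the gene), 4.06 at OR5D3 (q of 0.180) and 3.95 inside OR6N1 (q of 0.182). The next BHBNa fold was 3.85, inside OR2B11 (q of 0.0802). These are class II genes. Of the H2O2 peaks, that of OR5D3 was also the closest to the distance limit, at 19934 bp, followed by OR10H2 at 17001 bp with a fold of 3.89. Just beyond it lay H2O2 peaks 21689 bp from OR2M5 and 26055 bp from OR5B12, with folds of 5.08 and 4.91. Both had a q under 0.05 (0.0173 and 0.0286), from 7 fragments each. The count of 1 H2O2 peak at that q thus depends on the distance limit. In the BHBNa list the outermost peaks within the limit lay 15605 bp from OR56B4 and 16578 bp from OR4C6, with folds of 2.67 and 3.27. The nearest beyond it lay 20789 bp from OR7C2 and 20969 bp from OR4E1, with folds of 2.63 and 2.56.

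**Figure D4:**
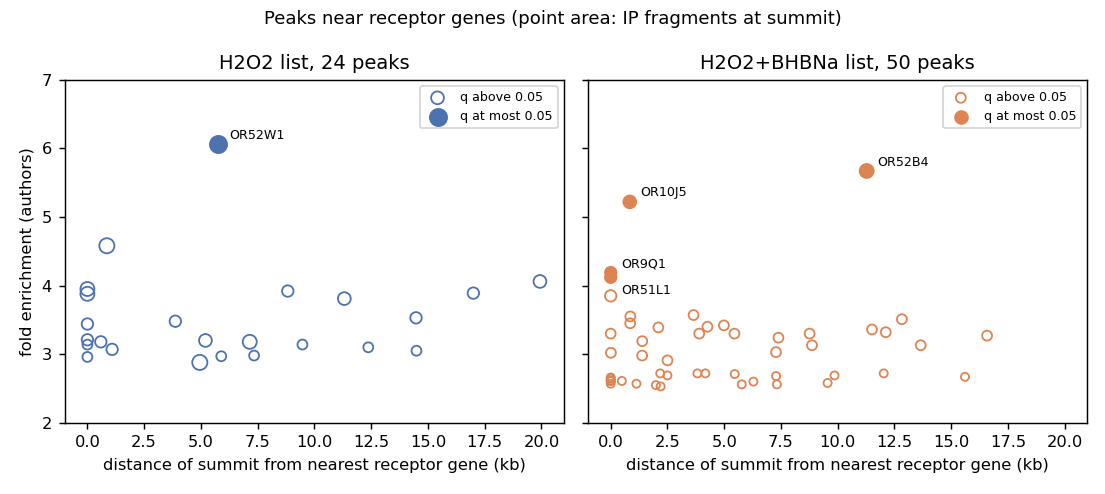
Fold enrichment as deposited by the authors (vertical axis) against the distance of the summit from the nearest receptor gene (horizontal axis, kb) for the 24 peaks of the H2O2 list and the 50 of the BHBNa list. Point area is the number of IP fragments and filled points have a q of at most 0.05. Named filled points are OR52W1 at 6.06, OR52B4 at 5.67, OR10J5 at 5.22, OR9Q1 at 4.19 and OR51L1 at 4.12.

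Peaks near members rested on few fragments, as did those elsewhere. Folds in the H2O2 list ran from 2.88 to 6.06 with a median of 3.20, against a median of 3.51 for its peaks elsewhere. BHBNa folds ran from 2.53 to 5.67 with a median of 3.0, against 2.72. H2O2 summits rested on 3 to 9 IP fragments. BHBNa summits rested on 2 to 6, and 23 of the 50 (46.0%) had exactly 2, against 51.8% of BHBNa peaks elsewhere. Median fragments were 4 near members and 4 elsewhere for H2O2, and 3 and 2 for BHBNa. The H2O2 list holds no peak under 3 fragments. Of 24 peaks 1 had a q within 0.05, 4.17% (0.739 to 20.2), and of 50 peaks 4 did, 8.0% (3.15 to 18.8). Elsewhere the shares were 7.09% (6.46 to 7.77) and 15.1% (14.5 to 15.8), within the wide intervals of the receptor peaks. The control background at these summits reached 1.78 and 0.376 fragments, where the highest elsewhere were 94.5 and 46.2.

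Summits lay inside 7 members in the H2O2 list, 1.81% against a background of 7.94% over all genes, which are longer. These were OR10K2, OR6N1, OR10A2, OR9Q1, OR9I1, OR8B8 and OR7D2, and the single peak in OR9Q1 was also the one in OR9I1. In the BHBNa list they lay inside 9, 2.33% against 15.3%: OR2B11, OR14A2, OR2L13, OR1J2, OR1L8, OR51L1, OR52E4, OR52E5 and OR9Q1. Folds of these peaks ran from 2.57 at OR1J2 to 4.19 at OR9Q1. Among genes of at most 10 kb the order was the other way. In the H2O2 list 1.27% of members and 0.346% of others had a summit inside, from 4 members. In the BHBNa list the shares were 0.955% and 0.793%, from 3 members. Exons and introns were not in the table used here. OR9Q1 was the 1 member with summits of both lists inside it, and its highest peaks lay 26.7 kb apart. Within 1 kb of an annotated end lay summits at 3 members in the H2O2 list and 7 in the BHBNa list, 0.777% (0.265 to 2.26) and 1.81% (0.881 to 3.70). The background shares were 0.242% and 0.806%, both just under the members' intervals, and the counts rest on few peaks. The H2O2 members were OR10A2, OR13C8 and OR8G5, and the H2O2 + BHBNa members OR10J5, OR1N2, OR52E5, OR5B17, OR5B3, OR6C70 and OR1D2.

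By distance, the BHBNa list had 3.51 peaks per Mb inside genes (1.68 to 6.46), 7.17 within 1 kb (2.33 to 16.7) and 5.84 from 1 to 5 kb (3.27 to 9.64). From 5 to 10 kb it had 4.76 (2.46 to 8.31) and from 10 to 20 kb 2.36 (1.02 to 4.65). The H2O2 list showed no such order, with 2.11, 2.87, 1.17, 2.77 and 1.77 in the same bins, and all intervals of a list overlapped. Where the nearest member's strand was known, summits outside genes lay upstream of it in 8 cases and downstream in 6 in the H2O2 list. BHBNa summits lay upstream in 18 cases and downstream in 15. Strand was not in the table for 4 and 7 further peaks. The closest summit outside a gene lay 9 bp downstream of OR6C70 (BHBNa, fold 3.02, 3 fragments). The closest upstream were 490 bp from OR5B3 (BHBNa, 2 fragments) and 591 bp from OR8G5 (H2O2, 4 fragments).

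**Figure D5:**
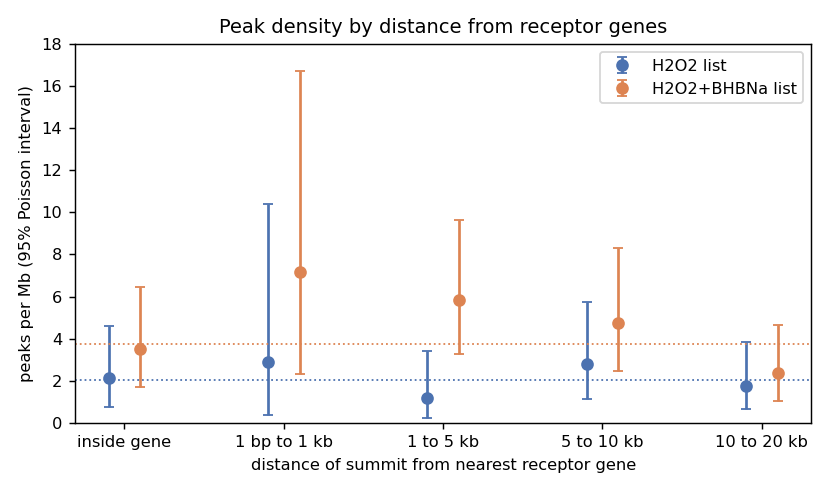
Peaks per Mb (vertical axis) by distance of the summit from the nearest receptor gene, with 95% Poisson intervals. Dotted lines are the averages of the lists, 2.05 and 3.74. Within 1 kb the H2O2 + BHBNa value of 7.17 rests on 5 peaks, and all intervals within a list overlap.

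The lists shared 1 peak near a member, 7150 bp outside OR14A16 by its H2O2 summit and also within reach of OR11L1 on chromosome 1. The H2O2 peak spanned 247831180 to 247831489 and the BHBNa peak 247831207 to 247831485, with summits 131 bp apart. Folds were 3.18 and 3.03, both with a q above 0.3: 0.494 from 6 fragments and 0.326 from 3. The local control background there was 1.20 and 0.320 fragments, above the lowest levels of the lists. This is 4.17% of the 24 and 2.0% of the 50 peaks, beside 1.17% and 0.632% for all peaks on these chromosomes. The other members with peaks of both lists had them at separate positions. OR8D4, OR4D5 and OR6T1 shared 1 peak of each list, with folds of 3.53 and 3.13 and summits 2.26 kb apart. For OR10G2 the folds were 3.14 and 3.30, 20.7 kb apart. OR4X1 had 2.98 and 2.72, and OR10H2 had 3.89 and 2.72.

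Genes that serve the receptors were taken as a list of olfactory signalling and receptor choice. Of its 20 genes, 4 (20%) had an H2O2 peak within 20 kb and 8 (40%) a BHBNa peak, where 11.3% and 24.7% of all placed genes did. These genes are long, with a median of 56.7 kb, and their densities of 2.22 (0.816 to 4.84) and 5.56 (3.11 to 9.17) per Mb overlapped those of the receptors. ANO2, the calcium-activated chloride channel of olfactory cilia, had 1 and 4 peaks, the highest a BHBNa peak of fold 5.44 (q of 0.000148). EBF1, a transcription factor of olfactory neurons and B cells, had 3 and 3, the highest in the H2O2 list at a fold of 3.89. KDM1A, the demethylase that takes part in receptor choice, had 1 and 1. GNAL, the olfactory G protein alpha subunit, LHX2 and OMP had 0 in both lists. Markers of olfactory neurons had a peak in 3 and 7 of 15 cases (20.0% and 46.7%) and markers of tubular epithelium in 4 and 5 of 20 (20.0% and 25.0%), beside the same 11.3% and 24.7%. Per Mb, the neuron markers had 2.85 (1.05 to 6.21) and 5.70 (2.95 to 9.96) peaks and the tubular markers 2.34 (0.760 to 5.46) and 3.74 (1.62 to 7.38), with overlapping intervals. The highest folds of the tubular list were inside CUBN, the cubilin receptor, at 4.05 and 4.38. The highest folds among the neuron markers were 3.92 at EBF2 (H2O2) and 3.92 at STOML3 (BHBNa), a stomatin-like protein of olfactory cilia. The neuron list shares 10 genes with the signalling list. Peaks near these genes do not measure their expression, and RNA was not analysed here.

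Other families gave the following densities, H2O2 first. Other chemoreceptors (taste, trace amine and vomeronasal receptors, 36 genes) had 2.13 (0.440 to 6.23) and 4.26 (1.56 to 9.28) per Mb. KRTAP, defensin, LCE and SPRR genes of skin and epithelial defence (169 genes) had 2.32 (1.0 to 4.57) and 3.77 (2.01 to 6.45). Zinc finger genes on chromosome 19, a clustered family of 255, had 0.812 (0.389 to 1.49) and 3.0 (2.11 to 4.14). Cytosolic ribosomal protein genes, active in every cell (80 genes), had 1.09 (0.297 to 2.79) and 3.82 (2.09 to 6.4). The intervals of all 4 groups overlapped those of the receptors in both lists. The highest folds were at TAS2R38 (4.58) and TAS2R1 (3.44), DEFB125 (5.12) and LCE2D (4.14), ZNF264 (3.92) and ZNF792 (4.54), and RPL5 (4.15) and RPL27 (3.63), the first of each pair in the H2O2 list.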

How the data were processed

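Per the submitters' processing notes, GRCh38 was used with MACS2 2.2.7.1, Bowtie2 2.4.2, fastp 0.20.1, DiffBind, HOMER and ChIPseeker. The sources used here give no role or setting for them. Labels' protocols give formaldehyde fixation, sonication and 150 bp read pairs. Values deposited by the authors per peak were a ratio (fold enrichment at the summit), the −log10 of the p-value and of the q-value, a score and a summit offset. The 2 files of a treatment held the same peaks, with starts 1 bp apart. The start plus offset was taken as the summit. IP fragments and background were recovered from the deposited fold and p-value by a search over whole numbers of fragments, taking MACS2's fold with 1 added to both and a Poisson p. In 100% of peaks a whole number gave the deposited −log10 p within 0.001 or 0.01% of it, whichever was larger. In 39 H2O2 and 30 H2O2 + BHBNa peaks another whole number also did, 0 of them near a member, and the closest was taken. The genome-wide depth of the libraries was not given, and intervals cover counting error only.

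The members, gene lists and tests were chosen with earlier results of these data known. Gene positions were those of RefSeq on GRCh38.p14. Genes whose rows step back in position (on alternate or unplaced sequences) were left out. Chromosome extents ran from 1 to the last gene or summit. Windows were merged, and peaks sharing at least 1 bp (bedtools 2.31.1) were taken as overlapping. Shifted positions were wrapped at the chromosome extent. Wilson, exact binomial and exact Poisson intervals are at 95%. GC quintiles used 1 promoter per gene. Named genes were those with a q of at most 0.05, the 5 highest folds per list, summits inside the gene, and up to 10 with peaks of both lists. The 6 largest clusters and the densest of at least 5 genes, and the highest fold of each other group, were also named. The counting was tested on simulated data (scipy 1.17.1, pandas 2.3.3, numpy 2.4.6, Python 3.11.15; plots with matplotlib 3.10.9).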

Additional observations from a re-analysis of the deposited data

How the results depend on the processing

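No paired analysis was possible because a treatment has 1 IP library, so no replicate could be left out either. Values give H2O2 first and H2O2 + BHBNa second. Of 46 alternative values, 24 stayed within 1.5 times of the reported count or within the counting interval of the reported ratio. With gene spans alone, 6 and 10 peaks and 7 and 9 members remained, and with 5 kb windows 11 and 30 peaks and 13 and 29 members. With 50 kb windows 64 and 128 members had a peak. These follow from the width. Limiting q to 0.05 left 1 and 4 peaks at 1 and 4 members, and the ratios to shifted positions were 0.909 and 0.769, below 1 where the full lists gave 1.63 and 1.39. Limiting −log10 q to 5 or more left 0 and 0. With at least 3 fragments required, the BHBNa list had 27 peaks at 36 members and a ratio of 1.85, and the H2O2 list was the same as reported. With summits within 5 kb taken as shared, 3 pairs were counted in place of 1. Keeping the genes on alternate sequences, chosen after seeing the data, changed no count.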

Other observations

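Receptor pseudogenes lie among the members and were outside the rule. RefSeq lists 470 of them placed on chromosomes 1 to 22. In all, 17 H2O2 and 38 BHBNa peaks lay within 20 kb of a pseudogene, most of them also near a member. The pseudogene windows beyond 20 kb of any member, 7.49 Mb, held 5 peaks of the H2O2 list and 14 of the BHBNa list. This is 0.668 per Mb (0.217 to 1.56) and 1.87 (1.02 to 3.14), where the windows of intact members had 2.0 (1.28 to 2.97) and 4.16 (3.09 to 5.48). The intervals overlapped in both lists, for BHBNa only between 3.09 and 3.14, and the difference was not tested. Outside chromosome 11 the members' windows had 1.25 and 2.77 per Mb. The pseudogene windows are not given by chromosome here, so the part of chromosome 11 in the difference was not tested.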
